A study of Arabidopsis thaliana with 251 samples.

Results

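The genes described here are the chromosomal neighbours of *FWA*, the gene that an artificial zinc finger (ZF) was built to bind in *Arabidopsis thaliana*. They are the TAIR10 genes whose annotated start lies on chromosome 4 between positions 12938360 and 13138360, which is 100 kb on each side of the *FWA* start. A start means the leftmost annotated base, and taking the 5′ end of each gene instead would change membership for 1 gene. Of 71 genes in this window, 5 were left out by the rule: *FWA* itself, *MSH3* beside it, and the cold response genes *CBF1*, *CBF2* and *CBF3*. This left 66 neighbours of 37899 genes annotated on the 5 nuclear chromosomes, 31 upstream and 35 downstream of the ZF summit. They comprised 56 protein-coding genes, 5 long non-coding RNAs, 3 tRNAs, 1 snoRNA and 1 other RNA. Distances are given in kb from the ZF summit at position 13038292, with a minus sign for the side before the *FWA* promoter.

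The study asked which chromatin proteins silence *FWA* when they are fused to ZF. In Col-0 plants *FWA* is methylated and silent, whereas all lines compared here carried the *fwa* epiallele, in which the gene is unmethylated and active. Of 251 samples, 100 ChIP–seq libraries of histone marks and RNA polymerase II (Pol II, Ser5-phosphorylated) from leaves of plants aged 4 to 5 weeks were used. They cover *fwa* and 10 ZF lines in the *fwa* background: CPL2-ZF, ELF7-ZF, HDA6-ZF, HD2A-ZF, HD2B-ZF, HD2C-ZF, JMJ14-ZF, MSI1-ZF, LHP1-ZF and EYFP-ZF, the last with a fluorescent protein in place of an effector. Fusions were transgenes under the *UBQ10* promoter or the effector's own promoter, and the labels do not say which for each line. For the effector fusions, T2 plants that flowered early were chosen. Each fusion was set beside *fwa* of its own data set, which gave 24 comparisons for effectors and 7 for EYFP-ZF. In data sets 3 and 4 the control libraries are labelled fwa1 and fwa2. The labels do not say how these differ, and both were taken as *fwa*. Most comparisons had 2 fusion libraries, while those of H3K9ac in HD2B-ZF and HD2C-ZF had 1. Several comparisons share their *fwa* libraries: those of JMJ14-ZF, ELF7-ZF, LHP1-ZF and MSI1-ZF for H3K27me3, of the HD2 fusions for each acetylation mark, of HDA6-ZF and MSI1-ZF, of ELF7-ZF and JMJ14-ZF for H3K4me3, and of ELF7-ZF and HD2A-ZF for Pol II. The labels do not say whether replicates came from separately grown plants.

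*FWA* encodes a homeodomain transcription factor that delays flowering when it is expressed outside the endosperm. H3K27me3 is laid down by polycomb repressive complex 2, of which MSI1 is a subunit, and is read by LHP1. H3K4me3 marks the starts of active genes and is removed by JMJ14. H3K36me2 and H3K36me3 lie over transcribed gene bodies, where ELF7 acts with Pol II as part of the PAF1 complex. Histone acetylation accompanies transcription and is removed by deacetylases such as HDA6 and the plant-specific HD2 family, and CPL2 dephosphorylates the Pol II tail. Some chromatin marks can spread along a chromosome from the place where they begin.

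The sequences below are shown because they lie under FLAG-ZF peaks at *FWA* and among its neighbours. They were read from the RefSeq genome (TAIR10.1, nuclear sequence as in TAIR10) at summits of the FLAG-ZF peak list, which is 1 list of a line in floral tissue. Its label names TRB1-ZF, and reading it as the study's FLAG-ZF experiment is an assumption. Binding of ZF alone and of a TRB1 fusion cannot be told apart in it. At the *FWA* promoter the summit lay in a tandem repeat, with a unit of 38 bases present in 2 copies 45 bases apart. Capitals mark TACATCTT, an 8-base word inside each repeat unit, and at the other sites the longest stretch shared with the repeat unit.
FWA repeat, chr4:13038244-13038336, plus strand: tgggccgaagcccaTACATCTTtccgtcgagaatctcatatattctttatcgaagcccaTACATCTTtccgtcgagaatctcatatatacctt
Downstream end of FWA, chr4:13042548-13042598, minus strand: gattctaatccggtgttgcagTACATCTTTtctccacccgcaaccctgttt
Intergenic site, chr4:12988974-12989026, plus strand: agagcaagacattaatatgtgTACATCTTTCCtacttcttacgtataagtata
BETA-OHASE 1 and AT4G25707, chr4:13096958-13097008, minus strand: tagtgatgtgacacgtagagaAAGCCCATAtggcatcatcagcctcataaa
SLK1, chr4:13032578-13032625, minus strand: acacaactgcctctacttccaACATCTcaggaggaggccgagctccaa
AT4G07385, chr4:13017162-13017209, plus strand: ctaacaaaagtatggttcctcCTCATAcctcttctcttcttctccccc

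The *FWA* summit was the strongest FLAG-ZF peak of the window, with an 11.7-fold enrichment. For FLAG-ZF the authors called peaks against *fwa*, so these folds compare the ZF line with *fwa* at a summit. The site labelled downstream end of *FWA* lay in a region across that end, with its summit at 13042564, beyond the last annotated base at 13042464. It was 6.67-fold enriched and shared 9 bases with the repeat unit. The intergenic site was 2.58-fold enriched and shared 11 bases, the longest stretch of all sites outside the *FWA* promoter. The site over *BETA-OHASE 1* and AT4G25707 was 6.68-fold enriched and shared 9 bases, without the word TACATCTT. The sites at *SLK1* (4.31-fold) and AT4G07385 (3.97-fold) shared 6 bases each. The word is the one of the repeat unit that the most FLAG-ZF summits of at least 4-fold held, so its share among them follows in part from that choice. Counted on both strands, with AAGATGTA as the reverse complement, it lay within the 151 bases around 10.8% of 6574 such summits and in 0.788% of 789046 consecutive genome windows of that length. In the window around *FWA*, with the *FWA* summit left out, it lay at 1 of 13 sites of at least 4-fold and at 1 of 38 weaker sites. A match of letters describes a site and says nothing about binding in leaves.

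Depth cannot be recovered from peak lists, so the number of peak regions per library stands in for it. It ranged from 940 to 29961 over the 100 libraries. The 4 H3K27me3 libraries of the EYFP-ZF data set stood apart, with 940 to 2199 regions against 10949 to 14912 in the other 10, and they held at most 2 neighbours with a peak. As a check of the leaf label, the *fwa* lists held 3 to 5 of 5 photosynthesis genes (*RBCS1A*, *RBCS2B*, *LHCB1.3*, *LHCB1.2* and *LHCA1*) in Pol II and H4K16ac and 4 to 5 in H3K9ac. No *fwa* list of these 3 held a peak at the 4 flower genes *AG*, *AP3*, *PI* and *SEP3*. The root hair genes *RHD6*, *COBL9* and *EXPA7* had none either, although H3K27me3 lay over up to 3 of them. The H3K27me3 lists of *fwa* went different ways: those of data sets 1 and 2 held 1 and 2 photosynthesis genes, 4 flower genes and 3 root hair genes, and those of the sparse data set 14 held 5 photosynthesis genes, 1 to 2 flower genes and 0 to 1 root hair genes. In H3K4me3, H3K36me3 and H3K27ac, however, the flower genes ranged from 0 to 4 of 4 between *fwa* libraries of different data sets. In H3K36me2 they ranged from 0 to 3. Every H3K14ac list of *fwa* held 2 to 3 of the 4 flower genes, with 4 to 5 photosynthesis genes. The part of this in any result was not tested. Where fewer cells carry a mark or each cell carries less of it, peaks cannot tell these apart.

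A neighbour was counted as having a peak where at least 1 bp of a called peak overlapped the annotated gene. It was called gained when every library of the fusion and no *fwa* library of its data sets had a peak, and lost in the reverse case. With 2 libraries against 2, no exact permutation test could go below a two-sided p of 0.333, so these calls carry no test and are read beside the same calls over all genes. Overlapping genes share peaks, and ChIP–seq has no strand, so that *SLK3*, AT4G25510 and AT4G07405 had the same highest peak in most lists.

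The neighbours of *FWA* were a mixed stretch of active and polycomb-marked genes. H3K4me3 peaks lay over 36 of the 66 in each of its 10 libraries, and 23 had none in any library. H3K36me3 was present in every library at 39 neighbours, H3K14ac at 40, H3K27ac at 35 and H3K9ac at 32. H4K16ac and Pol II lists varied more: 21 to 44 neighbours had an H4K16ac peak and 10 to 38 had a Pol II peak, depending on the library. H3K27me3 was absent from 47 neighbours in all 14 libraries. Among those that carried it, AT4G25400 and AT4G25410 lie side by side upstream and had folds of 8.68 and 6.97 in *fwa* of data set 1 and of 7.43 and 7.59 in *fwa* of data set 2. The Nudix hydrolase gene *NUDT10* had 3.49 and 5.85, and *XTH14*, a cell wall gene 92 kb downstream, had 5.77 and 6.54. None of these 4 genes was gained or lost in any effector comparison of H3K27me3.

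**Figure D1:**
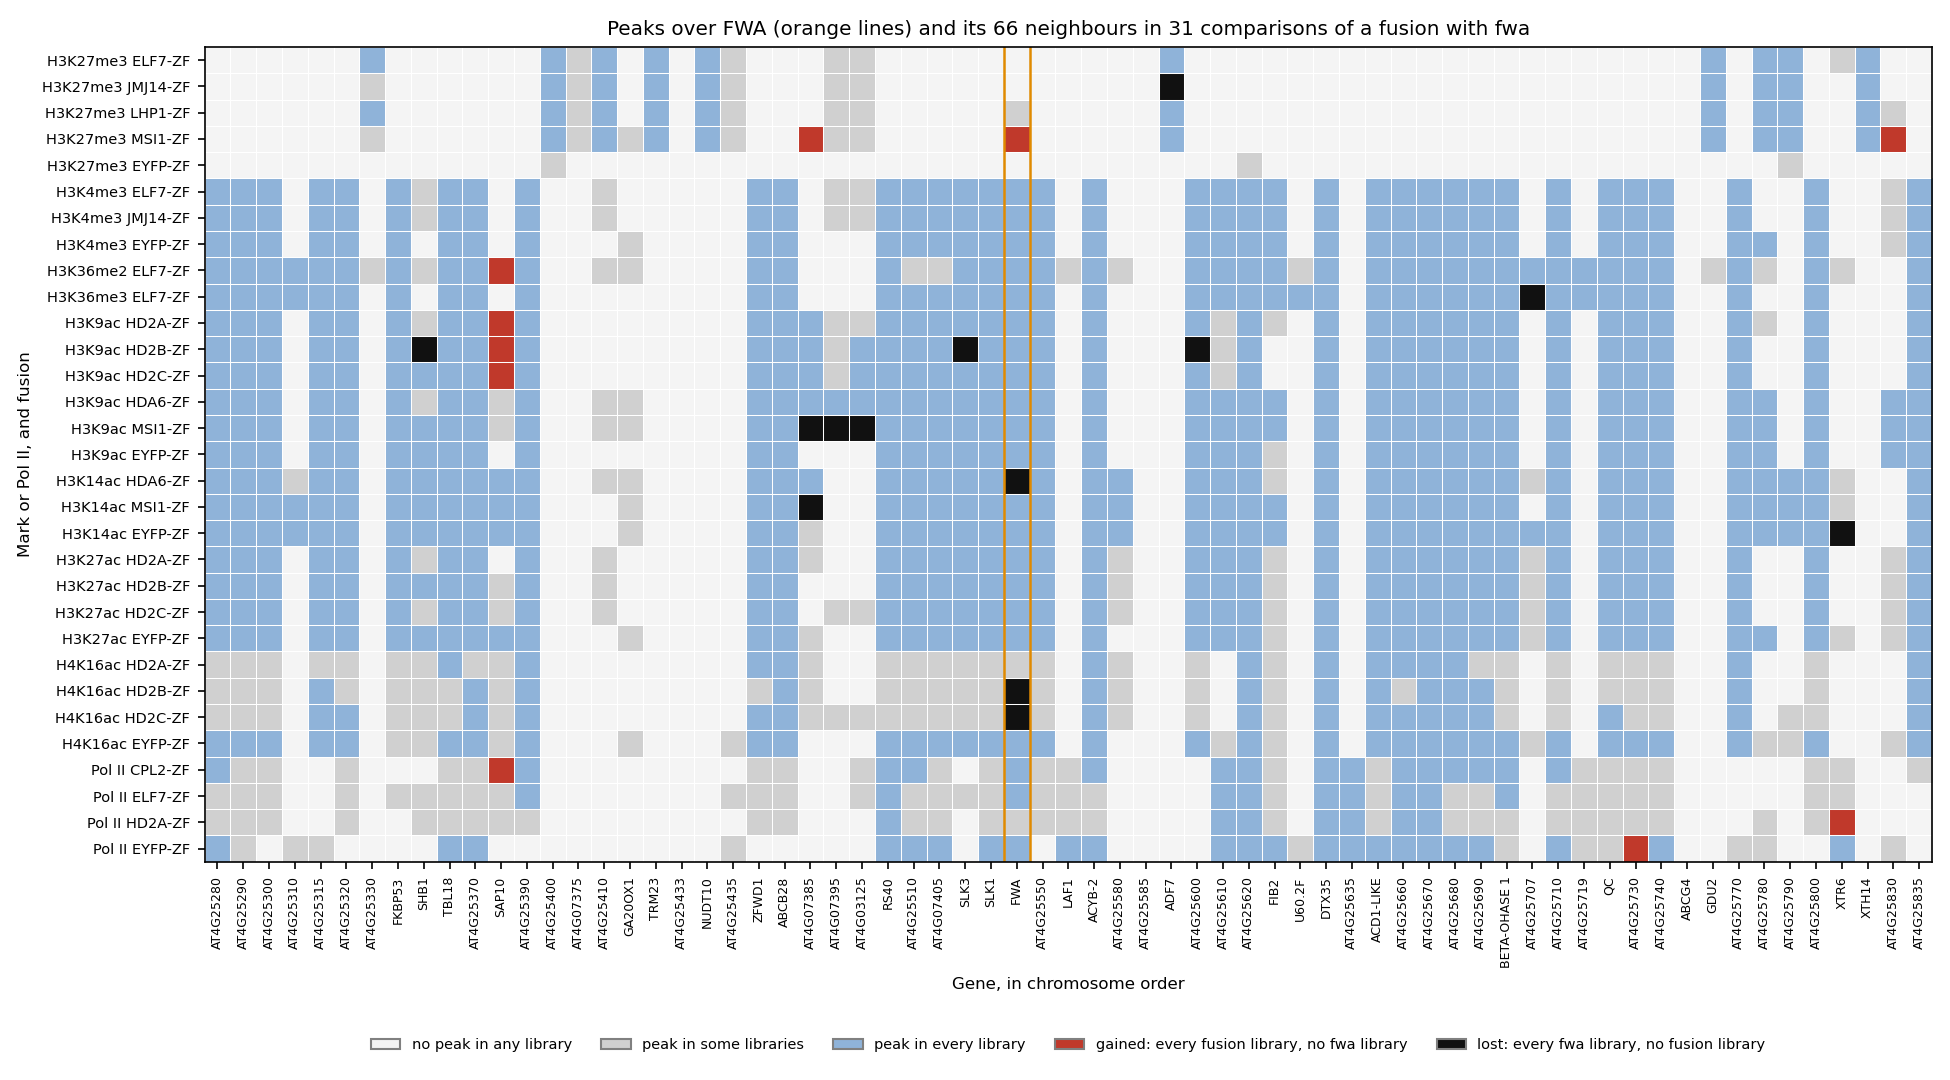
Peaks over *FWA* (between the orange lines) and its 66 neighbours, in chromosome order along the horizontal axis, in each of the 31 comparisons along the vertical axis. Light grey boxes had no peak in any library, mid grey boxes in some, blue boxes in all, red boxes were gained and black boxes lost. *MSH3* and the *CBF* genes, left out by the rule, are not drawn. The only run of boxes side by side with one call is H3K9ac in MSI1-ZF at AT4G07385, AT4G07395 and AT4G03125 (3 black boxes). They lie 18 to 21.2 kb upstream, with a *CBF* gene between AT4G07385 and AT4G07395. No box of *SLK1* or AT4G25550, the nearest scored neighbours on each side of *FWA*, is red or black.

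Changes at *FWA* itself were few by this count, and none of them was called at *SLK1*, the nearest neighbour. Over the 24 effector comparisons, *FWA* was gained in 1 (H3K27me3 in MSI1-ZF), lost in 3 (H3K14ac in HDA6-ZF and H4K16ac in HD2B-ZF and HD2C-ZF), had a peak in every library in 15, in some in 3 and in none in 2. In the 7 EYFP-ZF comparisons it had a peak in every library in 6 and in none in 1.

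Among the neighbours, 8 of 1584 pairs of a gene and an effector comparison were gained (0.505%), beside 0.353% over all genes. Lost pairs numbered 9 (0.568%), beside 0.63% over all genes. The gained pairs fell on 4 genes and the lost pairs on 8. In EYFP-ZF, 2 of 462 pairs were gained or lost (0.433%), beside 0.756% over all genes. Restricted to pairs that could move, 8 of 724 without a peak in *fwa* were gained (1.1%, all genes 0.631%) and 9 of 674 with a peak in every *fwa* library were lost (1.34%, all genes 1.79%). Of the 8 gains, 5 belonged to *SAP10* alone, 62.4 kb from the summit. The counts depended on the definition of a peak. With a summit inside the gene, 14 pairs were gained (0.884%, all genes 0.43%), 8 were lost (0.505%, all genes 0.685%) and 7 were called in EYFP-ZF (1.52%, all genes 0.939%). Without the lowest 25% of each list by fold, the gained numbered 15 (0.947%, all genes 0.461%), the lost 16 (1.01%, all genes 0.77%) and the EYFP-ZF pairs 5 (1.08%, all genes 0.819%). Leaving out 1 replicate gave 17 to 35 gained pairs (1.17% to 2.21%, all genes 0.756% to 1.31%) and 20 to 39 lost (1.33% to 2.69%, all genes 1.23% to 2.37%).

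Libraries of the same data set also differed where no fusion was involved. Between a fusion and a *fwa* library, a median of 3 neighbours (0 to 18 over 94 pairs of libraries) had a peak in only 1 of them. Between 2 *fwa* libraries the median was 2 (0 to 11 over 13 pairs). These pairs include those of fwa1 with fwa2, among them the pair with 11, for H4K16ac in data set 3. The medians were 4.55% and 3.03% of the neighbours, and 4.22% and 3.12% of all genes. H4K16ac and Pol II spread widest, with medians of 12 and 7 neighbours between fusion and *fwa*, and of 7 and 4 between *fwa* libraries, the last from a single pair.

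**Figure D2:**
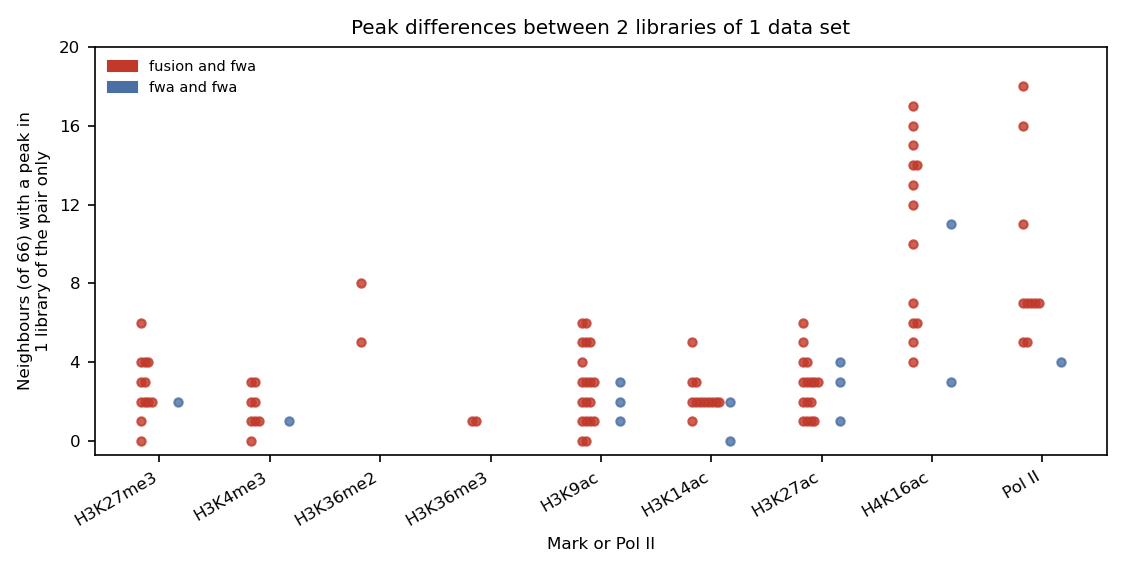
Number of neighbours (of 66, vertical axis) with a peak in only 1 of 2 libraries of the same data set, for each mark and Pol II (horizontal axis). Red points are pairs of a fusion and a *fwa* library, blue points pairs of *fwa* libraries; the median over all marks was 3 for red points and 2 for blue points.

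By distance of the gene start, the calls in effector lines lay between 10 and 25 kb and beyond 50 kb from the ZF summit. The only scored neighbour starting within 10 kb was *SLK1*, with 24 pairs and no call. *SLK3* starts at −10.1 kb, but its nearest edge lies at −6.49 kb. Its 1 lost call is counted in the next band, so the empty first band depends on measuring from the start. *MSH3* also lies within 10 kb, but it was left out by the rule and not scored. From 10 to 25 kb there were 15 genes with 1 gained and 7 lost of 360 pairs (2.22%). From 25 to 50 kb none of 384 pairs over 16 genes was called. From 50 to 100 kb, 34 genes had 7 gained and 2 lost of 816 pairs (1.1%). The share gained or lost was 0.982% over all genes and 1.07% over the neighbours as a whole. Within the 10 to 25 kb band the calls stood at 3.57% upstream and 1.04% downstream, and those upstream fell on 4 genes: AT4G07385, AT4G07395, AT4G03125 and *SLK3*. Both EYFP-ZF calls lay beyond 50 kb.

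**Figure D3:**
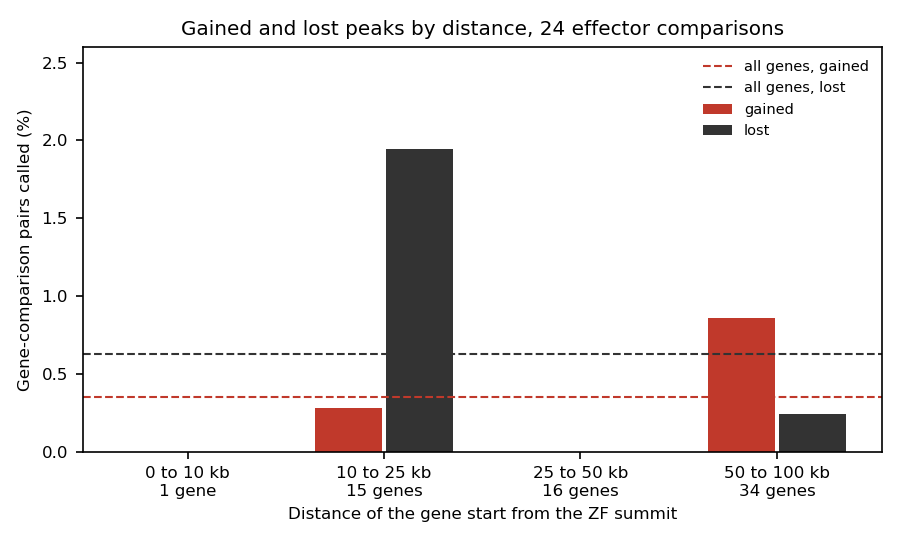
Percent of gene–comparison pairs gained (red) or lost (black) in the 24 effector comparisons (vertical axis) by distance of the gene start from the ZF summit (horizontal axis), with dashed lines for all genes (0.353% gained, 0.63% lost). The bands of 0 to 10 kb, with 1 scored neighbour, and of 25 to 50 kb, with 16, hold no call. *SLK3*, with a lost call and its nearest edge at −6.49 kb, is counted by its start in the band of 10 to 25 kb.

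Base by base, the same rule located what changed at *FWA* and how far it extended. In MSI1-ZF, 1041 bp of *FWA* and its 1 kb upstream gained H3K27me3, which is 20.4% of that stretch. The longest run covered 810 bp (chr4:13039203-13040012), inside *FWA*. Outside *FWA*, 0 bp were gained within 10 kb of the summit and 308 bp between 10 and 25 kb. In HDA6-ZF, 380 bp of H3K14ac (chr4:13038370-13038749) were lost at the *FWA* start, against 22 bp in the rest of the 10 kb. H3K9ac lost 309 bp at *FWA* in HDA6-ZF and 0 bp in the rest of the 10 kb. H4K16ac lost 141 bp at *FWA* in each of HD2B-ZF and HD2C-ZF, and 0 bp beside it.

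Pol II in CPL2-ZF lost 870 bp of *FWA* with its 1 kb upstream (17% of it) and 31 bp in the rest of the 10 kb. H3K36me2 in ELF7-ZF was the comparison with most change next to *FWA*: 432 bp inside the gene were lost, a run of 369 bp across the end of *FWA* into *MSH3* (chr4:13042385-13042753) was gained, and outside *FWA* 305 bp were gained and 292 bp lost within 10 kb. Over all 31 comparisons, 0 to 1.52% of the window outside *FWA* was gained and 0 to 1.57% lost. The bands from 0 to 10, 10 to 25, 25 to 50 and 50 to 100 kb differ in width, with the last the widest. In this order, Pol II of CPL2-ZF, with the 1.52%, gained 0, 740, 0 and 2218 bp outside *FWA*. H3K14ac of HDA6-ZF, with the 1.57%, lost 22, 513, 891 and 1632 bp.

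*SLK1*, whose gene ends 1.82 kb from the summit, is the nearest neighbour. It encodes a SEUSS-like co-regulator of transcription, and lies head to head with *FWA*. It had an H3K9ac peak in all 17 libraries. In data set 7 its folds were 3.42 and 3.25 in *fwa*, 2.91 and 3.21 in HDA6-ZF, and 2.91 and 3.18 in MSI1-ZF. At *FWA* in the same lists the folds were 3.91 and 4.22 in *fwa*, 1.72 and 2.01 in HDA6-ZF, and 3.86 and 3.37 in MSI1-ZF. Both HDA6-ZF libraries thus lay below both *fwa* libraries at each gene, far apart at *FWA* and close together at *SLK1*. For H3K9ac in HD2A-ZF, *SLK1* had 4.29 and 3.63 beside 4.4, 3.96 and 3.51 in *fwa*, whereas *FWA* had 3.46 and 3.05 beside 6.31, 5.76 and 5.3.

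Peaks of H3K14ac and H4K16ac at *SLK1* were compared as well. Its folds were 3.53 and 3.78 in *fwa*, 2.64 and 2.12 in HDA6-ZF, and 3.02 and 1.99 in MSI1-ZF, so both fusions lay below both *fwa* libraries, by differences that did not pass the limma threshold below. At *FWA* the H3K14ac peaks of *fwa* (2 and 2.45) were absent from both HDA6-ZF libraries, and MSI1-ZF had 2.16 and 1.64. H4K16ac at *SLK1* was present in HD2B-ZF (3.46 and 2.16) and HD2C-ZF (2.42 and 2.44), and in *fwa* it was missing from 1 library and stood at 2.8 and 2.92 in the others. At *FWA*, H4K16ac was 3.35, 2.98 and 2.43 in these *fwa* libraries and absent from all 4 of HD2B-ZF and HD2C-ZF. *SLK1* had no H3K27me3 peak in any of 14 libraries, including MSI1-ZF, where *FWA* had 6.27 and 2.63, and LHP1-ZF, where *FWA* had 3.14 and none.

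Because each list has its own scale of folds, their ranks were compared by quantile normalization of the log2 folds. limma was fitted over all genes with a peak in every library of a comparison, with p-values adjusted by Benjamini-Hochberg and 0.05 as the threshold. This fit did not pair libraries by data set, so its SEs and p-values take no account of that pairing. A fit with the replicate number as a block was an alternative. This could be done for 22 effector comparisons and 7 of EYFP-ZF. Of 563 pairs of a neighbour and an effector comparison, limma called 0 at the adjusted threshold, beside 0.0335% of all pairs (89 of 265851). At an unadjusted p under 0.05 stood 20 of them (3.55%), beside 5.27% over all genes. In EYFP-ZF limma called 0 of 211 pairs, beside 0.0237% over all genes, and 13 had an unadjusted p under 0.05 (6.16%, all genes 5.43%). No other test was run on the folds. Neighbours passed the filter only where every library had a peak, so the fit says nothing about the gained and lost pairs above.

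*FWA* itself passed the threshold in 1 comparison, H3K9ac in HDA6-ZF, where 0.107% of 17711 genes were called. Its log2 difference from *fwa* was −1.12 ± 0.152 (SE of the limma fit, adjusted p = 0.0497). Only 6 of the 17711 genes had a lower value, and none of the 41 neighbours tested had. The neighbours ranged from −0.39 to 0.51 with a median of −0.0089. This call is at the threshold and was lost in each fit that left out a library, with adjusted p from 0.112 to 0.382. For H3K9ac in HD2A-ZF, *FWA* stood at −0.67 ± 0.232 (limma adjusted p = 0.969), below all 35 neighbours, which ranged from −0.57 to 0.42. For H3K4me3, *FWA* stood at −0.57 ± 0.273 in ELF7-ZF and −0.40 ± 0.27 in JMJ14-ZF, neither of which passed the limma threshold, and 3 and 4 of 36 neighbours had lower values. These 2 comparisons share their *fwa* libraries. By fold, each fusion library lay below *fwa* of its data set at *FWA*. ELF7-ZF and JMJ14-ZF had 5.67 and 6.76 beside 8.03 in data set 1, and 8.56 and 8.64 beside 11.8 in data set 2. For H3K27ac in HD2B-ZF *FWA* was at −0.48 ± 0.295, also short of the threshold and below all 36 neighbours.

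**Figure D4:**
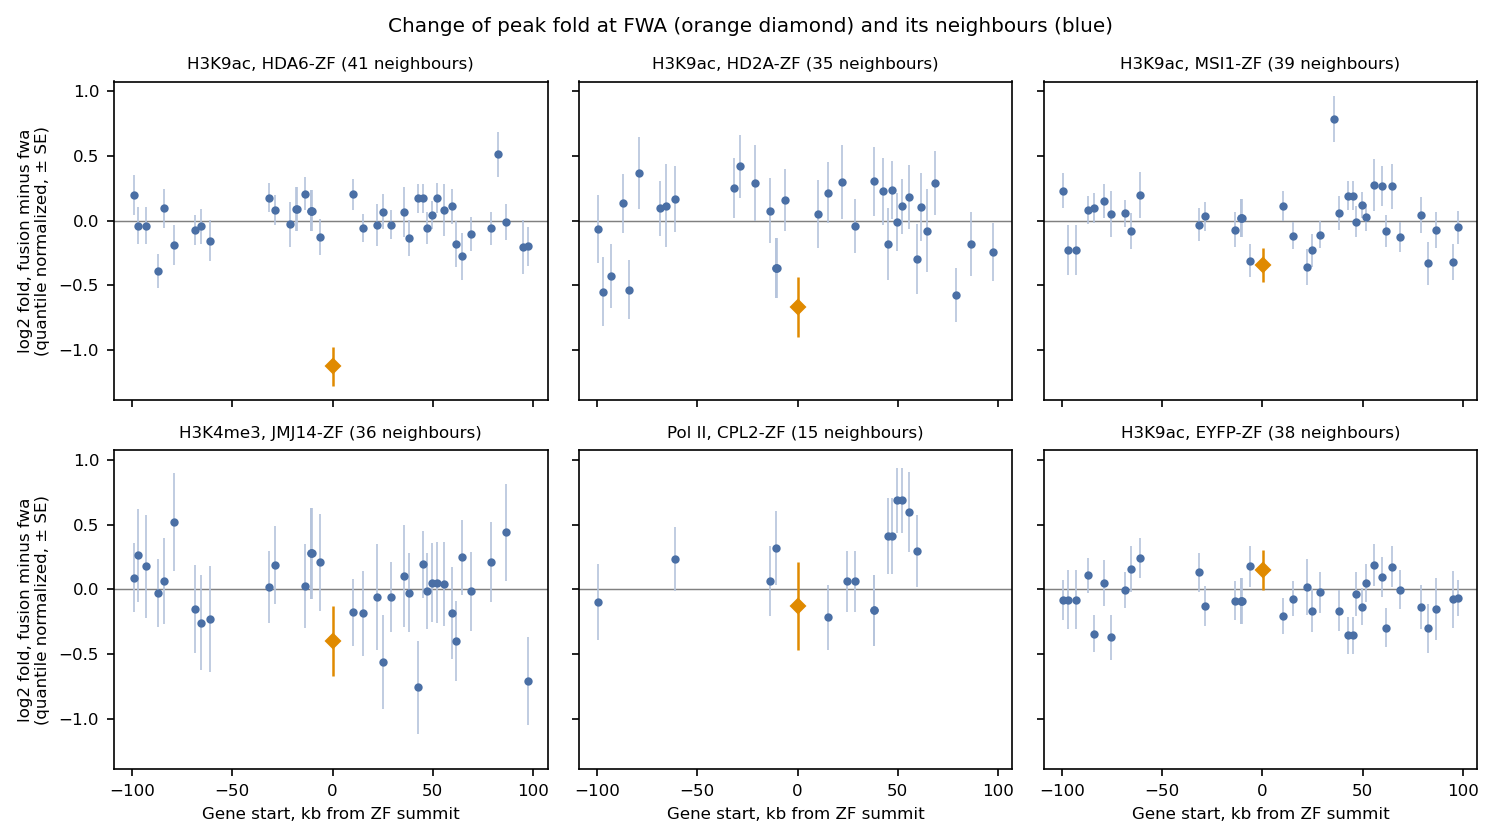
Difference in quantile-normalized log2 peak fold, fusion minus *fwa* (vertical axis, ± SE of the limma fit), against the distance of the gene start from the ZF summit in kb (horizontal axis), for 6 comparisons. Blue points are neighbours with a peak in every library, orange diamonds are *FWA*; in the HDA6-ZF panel *FWA* is at −1.12 and the neighbours lie between −0.39 and 0.51.

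The lowest limma adjusted p of a neighbour was 0.177, for H3K9ac at *FIB2* in MSI1-ZF. *FIB2* encodes fibrillarin, the methyltransferase of nucleolar snoRNPs, and starts 35.8 kb downstream. Its folds were 2.86 and 2.73 in MSI1-ZF, 1.47 and 1.72 in *fwa*, and 1.41 and 1.91 in HDA6-ZF (log2 difference in MSI1-ZF 0.78 ± 0.179). Both MSI1-ZF libraries lay above the other 4 of the data set. *SLK1* had an unadjusted limma p under 0.05 in 3 comparisons, all with lower acetylation. For H3K14ac it stood at −0.42 ± 0.154 in HDA6-ZF (limma adjusted p = 0.673) and −0.48 ± 0.177 in MSI1-ZF (limma adjusted p = 0.462). For H3K9ac in MSI1-ZF it stood at −0.31 ± 0.126 (limma adjusted p = 0.37). In the same order, 6.86%, 8.87% and 13.1% of all genes tested had an unadjusted limma p under 0.05. At *FWA* the same MSI1-ZF comparisons gave −0.17 ± 0.167 for H3K14ac and −0.34 ± 0.13 for H3K9ac, and neither passed the limma threshold. Within each of these marks, the HDA6-ZF and MSI1-ZF comparisons share their *fwa* libraries.

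Beyond *SLK1* on the upstream side lie *SLK3*, AT4G07405, AT4G25510, *RS40* and AT4G03125. *SLK3*, the second SEUSS-like gene, starts at −10.1 kb and has a FLAG-ZF region of 3.59-fold. It lost its H3K9ac peak in HD2B-ZF, where 1.88% of all genes were lost: the *fwa* folds were 3.77 and 3.5, and the single HD2B-ZF library had no peak over *SLK3* but one of 3.57 over the adjoining AT4G25510. H3K9ac was present at *SLK3* in the other 16 libraries. *RS40* encodes a serine- and arginine-rich splicing factor. It had H3K4me3, H3K9ac and Pol II peaks in every library, with Pol II folds from 2.35 to 6.64, and 3 FLAG-ZF regions, the highest 3.36-fold. No comparison called it.

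On the downstream side, *MSH3* lies next to *FWA* but was left out by the rule. The first 6 scored neighbours there are AT4G25550, *LAF1*, *ACYB-2*, AT4G25580, the tRNA gene AT4G25585 and *ADF7*. None has a FLAG-ZF region. AT4G25550, which starts at 10.1 kb, had H3K9ac folds of 3.93 and 4.21 in *fwa*, 4.72 and 4.63 in HDA6-ZF and 5.09 and 4.77 in MSI1-ZF. By fold, all 4 fusion libraries lay above the *fwa* libraries of their set. After normalization the log2 differences were 0.20 ± 0.12 in HDA6-ZF (limma adjusted p = 0.66) and 0.11 ± 0.11 in MSI1-ZF (limma adjusted p = 0.71). Neither passed the threshold. *ACYB-2* encodes a cytochrome b561 and was one of the most acetylated neighbours, with H3K9ac from 5.18 to 10.1 over 17 libraries. *LAF1*, a MYB factor of far-red light signalling, had no histone acetylation peak in any library and shared the Pol II peak of *ACYB-2* in several. AT4G25580 had H3K14ac in all 10 libraries (1.43 to 2.1), and AT4G25585 was without any peak. Of these 6 genes, *ADF7* alone was called.

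*ADF7* encodes an actin depolymerizing factor known from pollen and starts at 20.6 kb. It lost H3K27me3 in JMJ14-ZF, where 0.396% of all genes did. Its folds were 2.43 and 2.36 in *fwa*, 2.58 and 2.42 in ELF7-ZF, 3.41 and 2.76 in LHP1-ZF and 3.69 and 2.71 in MSI1-ZF, and no peak was called in either JMJ14-ZF library. The *fwa* peaks were weak ones, at percentiles 20.4 and 11.1 of fold in their lists. AT4G25600, at 22.3 kb with a FLAG-ZF region of 2.97-fold, lost H3K9ac in HD2B-ZF, with 2.75 and 2.04 in *fwa* and no peak in the 1 HD2B-ZF library. The run of 362 bp lay at chr4:13060664-13061025.

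The long non-coding RNA gene AT4G07385, at −21.2 kb, was called in 3 comparisons, and all were of MSI1-ZF. It is a gene of 898 bp (chr4:13017141-13018038, plus strand) with a FLAG-ZF region of 3.97-fold over its start, printed above, just short of the 4-fold minimum. H3K27me3 was gained, where 0.467% of all genes were: MSI1-ZF had 2.01 and 2.15, and the other 12 libraries had no peak. H3K9ac was lost, where 0.654% of all genes were: *fwa* had 1.96 and 2.62, HDA6-ZF 2.16 and 2.29, and both MSI1-ZF libraries none. H3K14ac was lost, where 1.57% of all genes were: *fwa* had 1.52 and 2.41, HDA6-ZF 1.52 and 1.63, and both MSI1-ZF libraries none. Every MSI1-ZF library therefore differed from every other library of its data sets in these 3 marks at this gene.

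These AT4G07385 peaks were weak. The H3K27me3 peaks stood at percentiles 6.07 and 3.98 of fold in their lists, and the H3K9ac peaks of *fwa* at 12.8 and 29.5. With the lowest 25% of each list by fold left out, all 3 calls were lost. The gain and the losses came from different data sets, and the H3K9ac and H3K14ac comparisons share no library with that of H3K27me3. In the EYFP-ZF data set AT4G07385 had no H3K9ac peak in any of 4 libraries, and H3K14ac in 1 EYFP-ZF library (1.76) only.

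Next among the scored neighbours, AT4G07395 at −18.3 kb and AT4G03125 at −18 kb overlap each other and lost H3K9ac in MSI1-ZF as well. They shared a peak of 1.96 and 2.28 in *fwa*, 2.02 and 2.51 in HDA6-ZF and none in MSI1-ZF. The lost run covered 558 bp (chr4:13020441-13020998), and that over AT4G07385 covered 364 bp (chr4:13017098-13017461). AT4G07395 and AT4G03125 have no FLAG-ZF region. Both genes had H3K27me3 in 9 of the 10 libraries of data sets 1 and 2, with 2.31 and 3.46 in MSI1-ZF and 2.39 and none in *fwa*. *CBF* genes lie between AT4G07385 and AT4G07395 and beside AT4G03125. They were left out by the rule and not scored. H3K9ac at the nearest scored protein-coding genes on each side did not move this way. In MSI1-ZF *ABCB28*, a transporter gene at −28.6 kb, had 5.19 and 4.83 beside 4.51 and 4.3 in *fwa*. *RS40* had 3.88 and 4.56 beside 4.23 and 3.67.

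**Figure D5:**
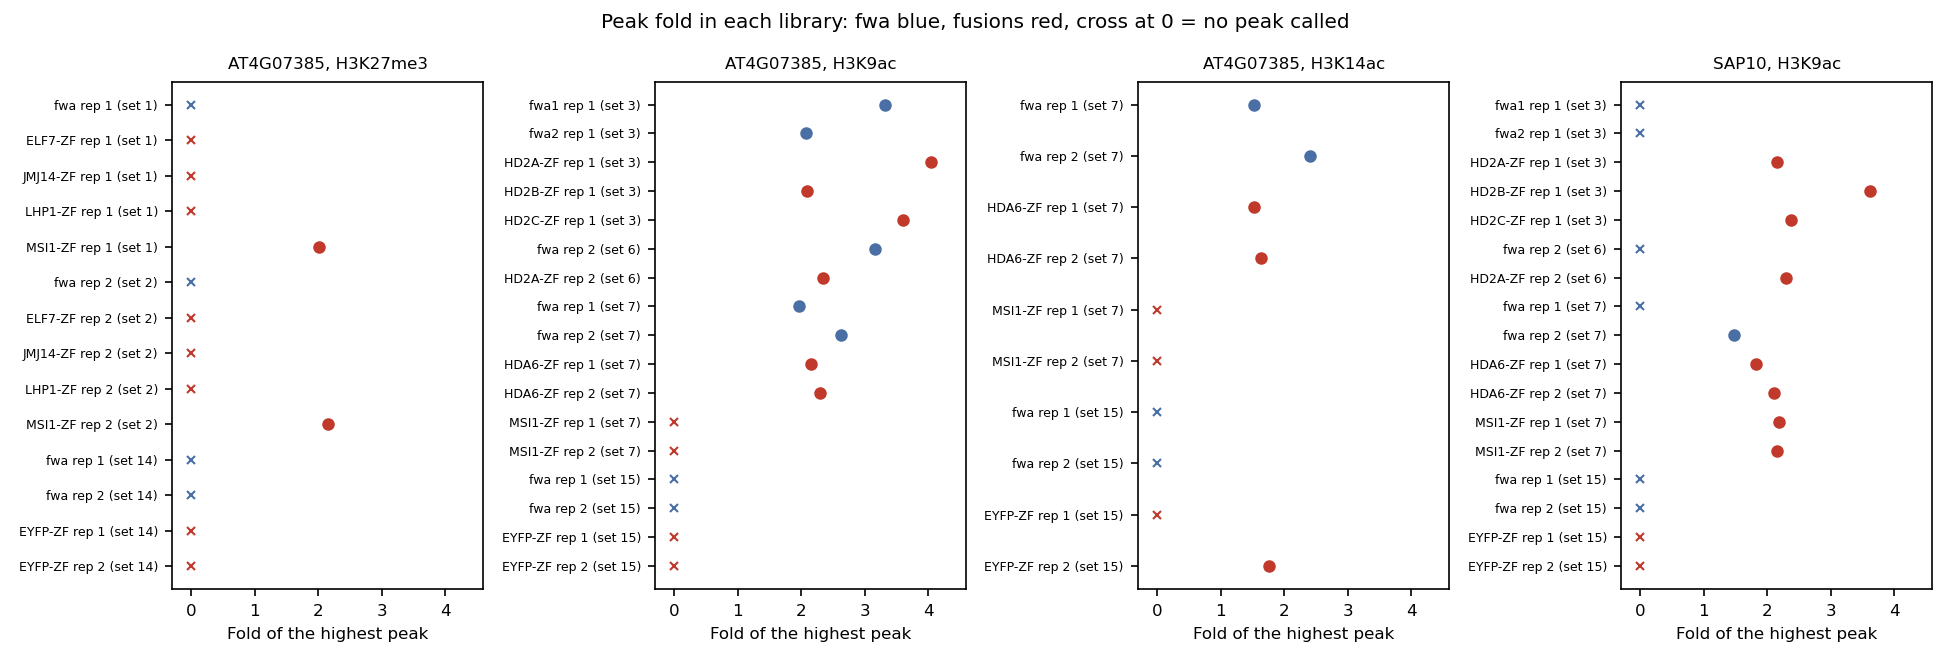
Fold of the highest peak (horizontal axis) in each library (vertical axis, grouped by data set) for AT4G07385 in H3K27me3, H3K9ac and H3K14ac and for *SAP10* in H3K9ac. Blue is *fwa*, red a fusion, and a cross at 0 means that no peak was called; for AT4G07385 the MSI1-ZF libraries are the only ones with H3K27me3 (2.01 and 2.15) and lack the H3K9ac peaks of their data set.

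*SAP10*, at −62.4 kb, was called in 5 effector comparisons, the most of any neighbour. It encodes a stress-associated protein with A20/AN1 zinc fingers, is 791 bp long and has no FLAG-ZF region. It gained H3K9ac in HD2A-ZF (2.16 and 2.3), where 0.272% of all genes were gained. It also gained H3K9ac in HD2B-ZF (3.62), beside 0.91% of all genes, and in HD2C-ZF (2.38), beside 0.881%. None of the 3 *fwa* libraries of these data sets had a peak. The 3 comparisons share 2 *fwa* libraries and are not separate observations of the control. In data set 7, *SAP10* had H3K9ac in 1 of 2 *fwa* libraries (1.47) and in all 4 fusion libraries (1.82 to 2.18), and in the EYFP-ZF data set in none of 4.

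The other 2 gains of *SAP10* were H3K36me2 in ELF7-ZF (2.33 and 2.15, none in *fwa*, beside 0.887% of all genes) and Pol II in CPL2-ZF (3.4 and 2.88, none in *fwa*, beside 0.522%). In ELF7-ZF its Pol II folds were 3.12 and 9.71, beside none and 4.32 in *fwa*, and HD2A-ZF in the same data sets had none. H3K14ac was present at *SAP10* in all 10 libraries (1.76 to 2.8), and H3K4me3 in none. H4K16ac reached 5.18 and 3.09 in the second HD2A-ZF and HD2B-ZF libraries beside 1.58 in *fwa* of the same set. Pol II also gained 565 bp in CPL2-ZF and 386 bp in ELF7-ZF inside AT4G25390, the gene that starts next to *SAP10*. The calls of H3K9ac in HD2B-ZF and of Pol II in CPL2-ZF were the 2 of all 19 that held under every peak definition tried.

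Another 4 neighbours beyond 50 kb were called in effector lines. *SHB1*, a gene of blue-light signalling and seed growth at −75.3 kb, lost H3K9ac in HD2B-ZF (1.93 and 2.2 in *fwa*, no peak in the fusion), but *fwa* of data set 6, 1 HD2A-ZF and 1 HDA6-ZF library had no peak either. AT4G25707, at 58.6 kb, lost H3K36me3 in ELF7-ZF, where 0.0792% of all genes did: *fwa* had 3.19 and 3.69, while H3K36me2 was present in all 4 libraries (2.34 to 3.76). This *fwa* peak is also that of the adjoining AT4G25710, which kept a peak in ELF7-ZF (3.33 and 3.43). The call was lost when the summit had to lie inside the gene, when 500 bp upstream were added and when 150 bp of overlap were asked for. AT4G25707 is the only called gene with a FLAG-ZF region of at least 4-fold. AT4G25830, a CASP-like membrane protein gene at 95.1 kb, gained H3K27me3 in MSI1-ZF (3.15 and 2.53), and LHP1-ZF had it in 1 library (4.15). *XTR6*, a xyloglucan-modifying enzyme gene at 90.1 kb, gained Pol II in HD2A-ZF (1.98 and 2.28), where 0.172% of all genes were gained, and *fwa* had none.

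In CPL2-ZF, the 870 bp above were bases that both *fwa* libraries and neither CPL2-ZF library had under a Pol II peak, but the fold of the highest peak at *FWA* did not pass the threshold (log2 difference −0.13 ± 0.338, limma adjusted p = 0.945). The active genes downstream went both ways, and none passed the threshold. AT4G25680 and AT4G25690, which meet about 50 kb from the summit and share a peak, had folds of 5.76 and 4.19 in CPL2-ZF and of 3.62 and 2.69 in *fwa* (log2 difference 0.69 ± 0.253, limma adjusted p = 0.359). AT4G25660 and AT4G25670 share a peak of 9.65 and 7.28 in CPL2-ZF and of 8.4 and 4.8 in *fwa* (0.41 ± 0.295, limma adjusted p = 0.72). In both cases each CPL2-ZF library lay above *fwa* of its own data set, while at *FWA* it was below in data set 10 (3.18 and 6.01) and above in data set 11 (5.02 and 3.45). *ACYB-2* went the other way, with 2.58 and 2.3 in CPL2-ZF beside 3.27 and 2.64 in *fwa* (−0.22 ± 0.251, limma adjusted p = 0.876). *DTX35*, a transporter gene at 38.2 kb, shares its peak with AT4G25635 and had 9.46 and 8.09 beside 11.9 and 7.95 (−0.16 ± 0.274, limma adjusted p = 0.918). At AT4G25620, one of the genes with the strongest Pol II peaks in the window, the values were 13.2 and 16.4 beside 16.9 and 12.2, so the groups overlapped.

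The control fusion gave calls of the same kind. In EYFP-ZF, *XTR6* lost H3K14ac (1.93 and 1.52 in *fwa*), where 0.594% of all genes were lost, and AT4G25730, at 64.4 kb, gained Pol II (2.43 and 2.05, none in *fwa*), where 0.631% of all genes were gained. AT4G25730 also had Pol II in 2 *fwa* libraries and 1 ELF7-ZF library of other data sets (2.06 to 3.28). At *FWA*, the EYFP-ZF folds of H3K9ac were 4.39 and 4.85 beside 3.61 and 4.67 in *fwa*, so the groups overlapped.

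FLAG-ZF regions also lay among the neighbours. The window held 52 FLAG-ZF regions of 19986 in the genome, 14 of them at least 4-fold. Of the 66 neighbours, 35 had a region over the gene or its 500 bp upstream, and 11 had one of at least 4-fold. The 6 nearest of these were *SLK1* (4.31-fold), *ABCB28* (5.3), *NUDT10* (5.12), AT4G25410 and AT4G07375 (4.3 each, the same region) and *BETA-OHASE 1* (6.68). None of these 6 was gained or lost in any of the 31 comparisons. Over the 11 genes, 0 pairs were gained and 1 was lost of 264 (0.379%). The 24 genes with weaker regions only had 2 gained and 5 lost of 576 pairs (1.22%), and the 31 genes without a region 6 gained and 3 lost of 744 (1.21%), beside 0.982% of pairs over all genes. By the same classes, the share over all genes was 1.38% with a region of at least 4-fold (6783 genes), 1.03% with weaker regions only and 0.835% with none. The low share of the 11 neighbours rests on 1 call and runs against the order over all genes. *BETA-OHASE 1* encodes a carotenoid hydroxylase and had a Pol II peak of 4.51 and 5.69 in CPL2-ZF beside 4.61 and 2.55 in *fwa*, and a run of 353 bp inside it was gained without changing the call for the gene.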

How the data were processed

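ChIP–seq peak lists of 9 antibodies (8 histone marks and Pol II Ser5) in *fwa* and ZF lines were used, with 1 list per library, together with the FLAG-ZF list. Reads were aligned by the authors to TAIR10 with Bowtie2 (2.1.0), keeping unique reads without mismatch, duplicates were removed with SAMtools (1.9), and peaks were called with MACS2 (2.1.1). The control of the calls is stated for FLAG-ZF alone. The deposited fold is the ratio of signal at a peak's summit to the background that MACS2 estimated there, from *fwa* for FLAG-ZF and from a source not stated for the other lists, and the deposited −log10 q values came from the same caller and were not used for calls. Because such folds depend on depth, which is unknown, and a peak near the caller's threshold can be present in 1 list and absent in another, presence and rank within a list were compared. BS-PCR files and lists of other FLAG lines were not used here.

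Genes were taken from the RefSeq annotation of TAIR10.1, and no peak of the 100 lists ended beyond a chromosome of it. Folds were taken from the highest peak over each gene. Rank fits used limma (3.58.1, trend) in R (4.3.3), and the rest python (3.11.15), numpy (2.4.6), pandas (2.3.3) and matplotlib (3.10.9). Both procedures were run on simulated data. For the calls, peaks were planted in every library of 1 group, which matches the rule itself. For limma, noise was drawn independently for each library, without the correlation between same-numbered libraries given below. Neither simulation can show how the procedures do on the real lists. Data sets are numbered as in the labels, and replicate numbers are the labels'. In comparisons over 2 data sets the number marks the data set, and deviations from the group means of same-numbered libraries correlated at 0.106 to 0.504 across genes. Within 1 data set they correlated at −0.0498 to 0.0448. The named genes are *FWA*, the 6 nearest neighbours on each side, all called neighbours and the 6 nearest with a FLAG-ZF region of at least 4-fold; AT4G25390, AT4G25400, AT4G25620, AT4G25635, AT4G25660 to AT4G25690, AT4G25710, *DTX35*, *FIB2* and *XTH14* were named after their values were seen. The genes and lists were chosen with earlier results of these data known. Alternatives were other peak definitions, a stricter peak threshold, other scaling, the replicate block and leaving out libraries.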

Additional observations from a re-analysis of the deposited data

Results flagged for a closer look

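Pol II lists of the *elf7* mutant and of Col-0, which enter no comparison above, hold 5 neighbours of *FWA* with a peak in both libraries of one genotype and in no library of the other, and were singled out as signal in data outside the main comparisons. Col-0 carries the methylated, silent *FWA* allele. The cell wall gene *TBL18* had folds of 3.91 and 3 in Col-0 and no peak in *elf7*. *LAF1* had 2.63 and 2.21 in Col-0 and none in *elf7*, and AT4G25710 and AT4G25719, which shared a peak, had 2.78 and 3.62 in Col-0 and none in *elf7*. AT4G25730, which gained Pol II in EYFP-ZF above, had 3.28 and 2 in *elf7* and none in Col-0. The 5 neighbours are 7.58% of 66, beside 2.86% over all genes (1083 of 37899), and the 4 losses 6.06%, beside 2.67%. Between 18 and 25 neighbours had a Pol II peak in the *elf7* libraries (27.3% and 37.9%), beside 26.8% and 34.9% of all genes. In Col-0 there were between 29 and 31 (43.9% and 47%), beside 37.5% and 37.8% of all genes. The part of this difference in the 4 losses was not tested.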

How the results depend on the processing

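The counts of gained and lost neighbours moved with the definition of a peak. The 8 gained pairs of the effector fusions became 14 when a summit had to lie inside the gene. Without the lowest 25% of each list by fold they became 15. They stayed within 1.5 times under the other definitions. With 500 bp upstream there were 9 (0.568%, all genes 0.366%), and with 150 bp of overlap 11 (0.694%, all genes 0.33%). The 9 lost pairs became 16 without the lowest 25%. They were 8 with the summit rule (0.505%, all genes 0.685%) and 8 with 500 bp upstream (0.505%, all genes 0.648%). With 150 bp of overlap they were 7 (0.442%, all genes 0.624%). The 2 EYFP-ZF pairs became 7 with the summit rule and 5 without the lowest 25%. They became 1 with 500 bp upstream added (0.216%, all genes 0.761%). With 150 bp of overlap they were 4 (0.866%, all genes 0.716%), and without Pol II 1. Leaving out 1 replicate at a time gave 17 to 35 gained and 20 to 39 lost pairs, with the shares given above. EYFP-ZF pairs then numbered 7 to 14 (1.52% to 3.03%, all genes 1.91% to 2.26%). Counts rose since fewer libraries then had to go the same way. Of the 19 calls, 15 held with the summit rule, 15 with 500 bp upstream, 15 with 150 bp of overlap, and 6 without the lowest 25%. Leaving out the comparisons with 1 fusion library, or Pol II, or the sparse H3K27me3 lists of EYFP-ZF was chosen after seeing the data, and gave 6 and 6 gained, 6 and 9 lost, and 2 EYFP-ZF pairs without H3K27me3.

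limma called 0 neighbours in effector fusions under median centring, the summit rule, the replicate block and each left-out replicate. In EYFP-ZF it called 0, apart from 1 without *fwa* replicate 1 (range 0 to 1): Pol II at *XTR6*, with a log2 difference of 1.01 and an adjusted p of 0.00462. The replicate block, in which replicate number pairs libraries, called 0 neighbours in both. For *FWA* in H3K9ac of HDA6-ZF the block gave an adjusted p of 1.31e-05, median centring 0.0561 and the summit rule 0.0535; the log2 difference stayed between −1.25 and −0.99. In that comparison the replicate numbers do not mark data sets. Depth is unknown, so an absent peak means only that none was called.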
